A study of Mus musculus with 12 samples.

Results

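Prg2, Prg3, Epx, Siglecf and Ear2 are genes by which mouse eosinophils are recognised, and their transcripts were followed in cultures of bone marrow derived mast cells. The genes were chosen by symbol: a probe set was used when the platform annotation gave it exactly 1 symbol from these 5. Of the 5 genes, 4 were found, with 1 probe set each, out of 19938 genes measured: Prg2 (probe set 10473399), Prg3 (10473406), Epx (10389654) and Siglecf (10552369). No probe set was annotated to Ear2 in the annotation used, and Ear2 was not analysed here.

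The 12 arrays came from marrow cells of female mice aged 4 to 6 weeks, cultured in medium with stem cell factor at 12.5 ng/ml and interleukin 3 at 10 ng/ml. There were 3 arrays in each of 4 groups: ACKR2-/- mice (also labelled D6-/-) at 2 weeks of culture, wild type mice at 2 weeks, ACKR2-/- at 10 weeks and wild type at 10 weeks, all of the C57BL/6 strain. ACKR2 is an atypical chemokine receptor that takes up inflammatory CC chemokines without the usual signalling. Non-adherent cells were moved away from adherent cells, and for some experiments 2-week cells were purified on a column for CD117, the Kit receptor; which arrays this concerns is not given in the labels. The deleted part of the gene is not given either. By its title, every array is a numbered biological replicate, but no animal or culture is named for it. The p-values therefore measure the spread between these arrays, and how much of it is technical is not known.

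Eosinophils grow from marrow precursors under interleukin 5, with interleukin 3 and GM-CSF acting through the same shared receptor chain, and under the transcription factors GATA1, C/EBP family members and PU.1. Their granules hold the major basic proteins encoded by Prg2 and Prg3, eosinophil peroxidase encoded by Epx and the eosinophil-associated ribonucleases, of which Ear2 encodes one. Siglecf encodes an inhibitory receptor for sialic acids on the surface of mouse eosinophils that is also found on alveolar macrophages. Mast cells depend on GATA2, GATA1 and the interleukin 3 receptor as well, so part of the eosinophil programme belongs to both lineages.

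To set granule genes beside the surface gene, the 250 bases before the annotated starts of Prg3, Epx and Siglecf are shown from RefSeq (mouse build GRCm38.p6), 5′ to 3′ on the strand of the gene. The table held 4 of the 5 genes, all but Prg2. Capitals mark matches on either strand to a GATA hexamer (GATA with A or T before it and A or G after it), a C/EBP pattern (TTNNGNAA) or a PU.1 core (GAGGAA), and no matches overlapped in these windows.
Prg3, chr2:84987965-84988214, strand +: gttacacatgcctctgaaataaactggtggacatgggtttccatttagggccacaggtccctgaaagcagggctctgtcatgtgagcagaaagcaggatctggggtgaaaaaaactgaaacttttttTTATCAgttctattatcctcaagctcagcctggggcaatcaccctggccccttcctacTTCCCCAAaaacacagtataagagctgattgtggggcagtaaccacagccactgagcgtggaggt
Epx, chr11:87875537-87875786, strand -: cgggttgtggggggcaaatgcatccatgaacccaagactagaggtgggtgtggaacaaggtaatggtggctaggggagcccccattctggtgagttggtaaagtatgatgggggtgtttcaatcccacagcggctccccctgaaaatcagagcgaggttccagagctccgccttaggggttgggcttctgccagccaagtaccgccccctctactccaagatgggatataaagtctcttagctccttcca
Siglecf, chr7:43351091-43351340, strand +: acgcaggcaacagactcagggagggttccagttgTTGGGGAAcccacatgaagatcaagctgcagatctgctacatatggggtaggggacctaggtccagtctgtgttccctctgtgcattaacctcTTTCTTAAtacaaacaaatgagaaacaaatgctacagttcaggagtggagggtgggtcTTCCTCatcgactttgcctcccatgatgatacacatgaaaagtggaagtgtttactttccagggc

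The Prg3 window held 1 GATA hexamer, starting 123 bases before the start, and 1 C/EBP match 65 bases before it. The Epx window held none of these letters. The Siglecf window held 2 C/EBP matches, at 216 and 123 bases before the start, and 1 PU.1 core at 65 bases. Among all 32851 windows of the same length, 26.5% held a GATA hexamer, 36.8% the C/EBP pattern and 23.3% the PU.1 core.

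Before the results, 4 arrays must be set apart. All 3 arrays labelled ACKR2-/- at 2 weeks and wild type 2-week array 3 lacked the mast cell signal of the other 8. Fcer1a, which encodes the IgE-binding chain of a mast cell receptor, read 4.83 to 5.47 on these 4 and 13.74 to 14.14 on the rest. Xist, made from the inactive X chromosome of females, read at most 6.23 on the 4 and at least 13.00 on the rest, although every label gives female mice, and the Y-linked Kdm5d read at least 10.06 on the 4 and at most 6.42 on the rest. B cell markers averaged 9.72 to 12.59 on the 4 and at most 7.15 elsewhere. At 10 weeks Ackr2 itself read 8.35, 8.16 and 8.25 on the ACKR2-/- arrays, against 7.88, 8.26 and 8.35 on the wild type arrays. At 2 weeks it read 7.79 to 9.43 on the ACKR2-/- arrays, against 8.19 to 8.38 on the wild type arrays. Whether its probe set lies in the deleted part is not known, so it does not check the genotype. Groups are therefore named throughout as the arrays were labelled.

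At 10 weeks, the granule genes Prg2, Prg3 and Epx were low on all 3 ACKR2-/- arrays and high on wild type arrays 1 and 2, while wild type array 3 lay between them for Prg2 and near the ACKR2-/- arrays for the other 2 genes. Values are log2 signals, so a difference of 1 is a doubling. All 4 genes, against 48.4% of all genes, had lower means on the ACKR2-/- arrays, by 0.46 to 2.69 on the log2 scale, and none passed an adjusted p of 0.05. Siglecf varied least of the 4.

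Prg2, the main major basic protein gene, read 6.77, 6.42 and 6.47 on ACKR2-/- arrays 1 to 3, against 9.85, 10.08 and 7.81 on the wild type arrays. The groups did not overlap, and wild type array 3 lay between its own group and the ACKR2-/- arrays. The means were 6.55 ± 0.19 and 9.25 ± 1.25 (SD, n = 3 each), a log2 difference of -2.69 ± 0.54 (SE) or 6.47-fold lower, with a limma p of 0.380 once adjusted over all genes (Benjamini-Hochberg) and a 95% interval from -3.96 to -1.43.

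Prg3, the gene of the second major basic protein, read 6.69, 6.89 and 6.53 on the ACKR2-/- arrays, against 8.50, 8.82 and 6.86 on the wild type arrays. Here wild type array 3 fell inside the ACKR2-/- range. The difference was -1.36 ± 0.46, with a limma adjusted p of 0.406 and a 95% interval from -2.44 to -0.28. Epx, the peroxidase gene, read 6.772, 6.49 and 6.52 on the ACKR2-/- arrays, against 9.17, 8.25 and 6.777 on the wild type arrays. ACKR2-/- array 1 and wild type array 3 were thus nearly equal, although the groups formally did not overlap. The difference was -1.47 ± 0.52, with a limma adjusted p of 0.421 and an interval from -2.70 to -0.25.

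Siglecf, the surface receptor gene, read 8.64, 8.08 and 8.12 on the ACKR2-/- arrays, against 8.55, 9.03 and 8.67 on the wild type arrays. ACKR2-/- array 1 lay within the wild type range and the other 2 below it. The difference was -0.46 ± 0.20, with a limma adjusted p of 0.471 and an interval from -0.93 to -0.0029. Over all 12 arrays Siglecf spanned 1.00 on the log2 scale, against 3.66 for Prg2, 3.09 for Epx and 2.29 for Prg3.

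**Figure D1:**
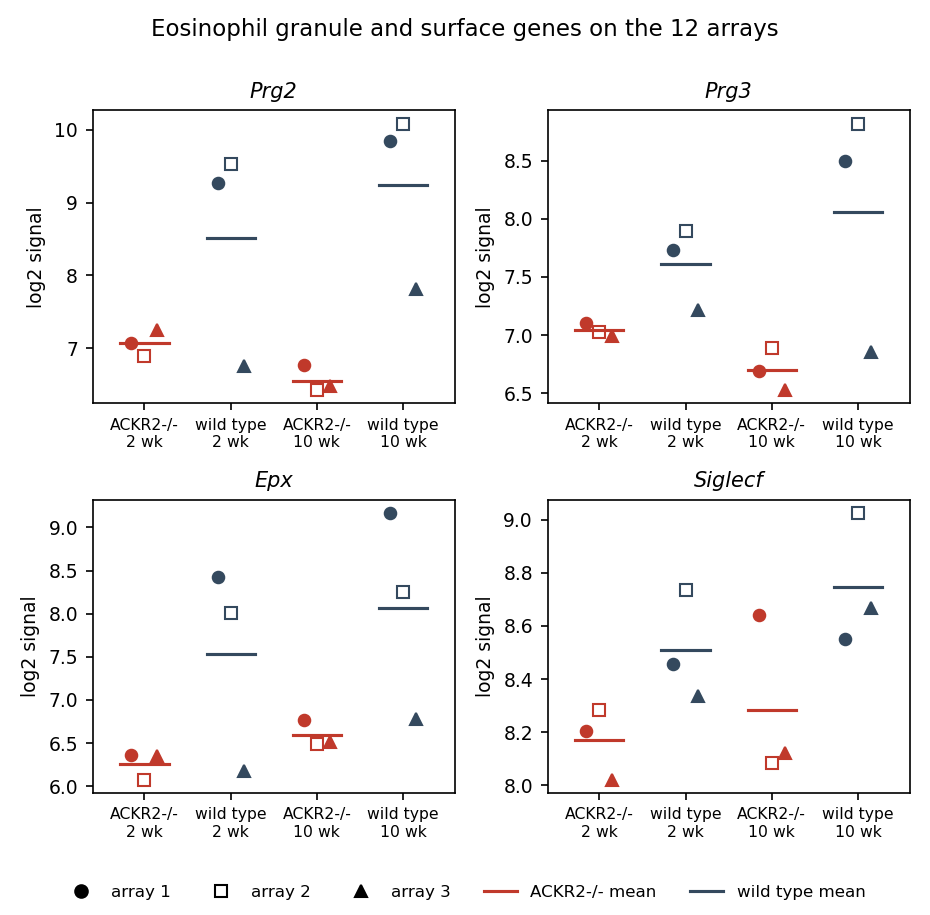
Log2 signal (vertical axes, each with its own range) of the 4 measured genes on the 12 arrays, by labelled genotype and week of culture; points are single arrays, with a marker shape for each array number, and lines are group means. Prg2, Prg3 and Epx are high on wild type arrays 1 and 2 at both times, while Siglecf spans 1.00 over all arrays.

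Across all genes at 10 weeks, limma called 0 of 19938 (0% in either direction). At an unadjusted p under 0.05 there were 2102. An unadjusted p under 0.05 with a lower mean was found for 4 of the 4 genes and for 4.82% of all genes. Groups that did not overlap, with ACKR2-/- lower, were found for 2 of the 4 genes (Prg2 and Epx) and for 5.98% of all genes. The 4 genes had a median difference of -1.42, against 0.01 for all genes, and 0.145% of genes had a difference as low as that of Prg2, 0.792% as that of Epx, 0.963% as that of Prg3 and 5.30% as that of Siglecf. An exact two-sided permutation test gave p = 0.1 for Prg2 and for Epx, the smallest it can give with 3 arrays against 3, and p = 0.2 for Prg3 and for Siglecf.

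Of the 6 arrays, only wild type array 3 made Prg2 and Prg3 pass when left out. Without it, limma gave Prg2 a difference of -3.41 with an adjusted p of 0.00497 and Prg3 one of -1.96 with an adjusted p of 0.0431, while Epx (-2.12) and Siglecf (-0.50) did not pass, and 9 genes were called in all. Over leaving out each of the 6 arrays, the lowest adjusted p of Prg2 was this one and the highest 1.00, without wild type array 2. Without wild type array 1 the Epx difference shrank to -0.92, with an adjusted p of 0.244. All 4 genes kept a lower mean on the ACKR2-/- arrays whichever single array was left out.

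**Figure D2:**
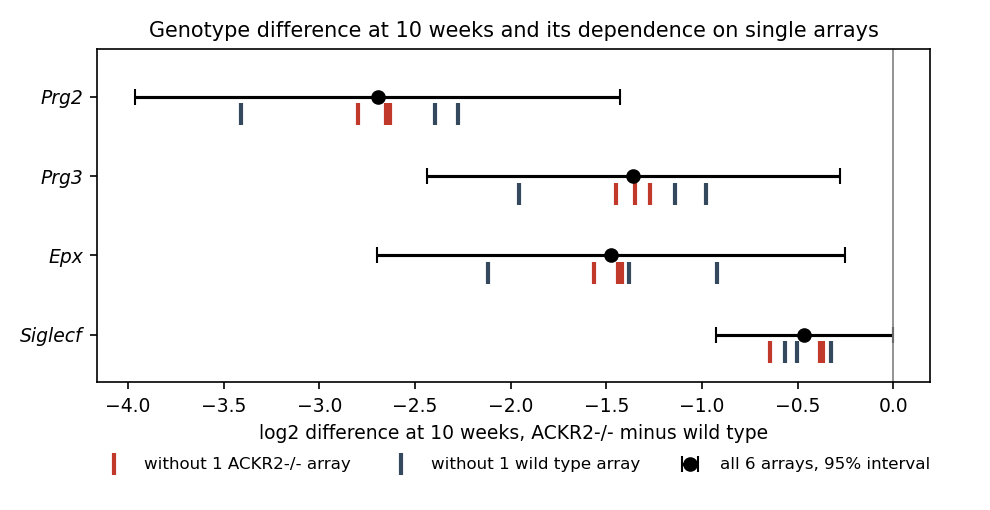
Log2 difference at 10 weeks, ACKR2-/- minus wild type (horizontal axis), for the 4 genes: black points are the values over all 6 arrays with 95% intervals, and ticks below them are the values with 1 array left out, coloured by the genotype of that array. The tick farthest from 0 for Prg2, at -3.41, leaves out wild type array 3.

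Markers of other myeloid cells also had lower means on the ACKR2-/- arrays, with 0 of 16 neutrophil, 0 of 13 macrophage and 0 of 6 basophil markers past the threshold (lowest adjusted p = 0.380). Neutrophil markers averaged 8.09, 6.81 and 6.64 on the ACKR2-/- arrays, against 9.23, 10.21 and 8.46 on the wild type arrays, and 16 of 16 had lower means on the ACKR2-/- arrays. Monocyte and macrophage markers averaged 9.51, 7.74 and 7.54, against 9.11, 10.32 and 9.78, with 13 of 13 lower. Basophil markers averaged 11.05, 9.34 and 9.28, against 11.26, 11.36 and 11.20. Mast cell markers averaged 12.08, 11.28 and 11.22, against 12.08, 11.87 and 11.92, with 7 of 12 lower. The part of these other cells in the result was not tested, and in such bulk samples fewer cells of a type and less RNA per cell cannot be told apart.

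The granule genes ordered the arrays differently from the macrophage markers, and the reason was not tested. ACKR2-/- array 1 had a macrophage average of 9.51, above the 9.11 of wild type array 1, and its Prg2 was 6.77 against 9.85 there. Wild type array 3 had the second highest macrophage average of the 6 arrays, 9.78, and a Prg3 of 6.86, within the ACKR2-/- range. On neutrophil markers these arrays, with 8.09 and 8.46, lay between wild type arrays 1 and 2 and ACKR2-/- arrays 2 and 3. The mean of the 4 eosinophil genes was 7.22, 6.97 and 6.91 on the ACKR2-/- arrays, against 9.01, 9.05 and 7.53 on the wild type arrays. The neutrophil averages put the 6 arrays in the same order as this mean. Single neutrophil markers differed among themselves, and Ngp and Chil3 are given as examples chosen after the data were seen. Ngp read 6.16, 6.57 and 6.21 on the ACKR2-/- arrays, against 10.65, 10.80 and 6.49 on the wild type arrays. Chil3 read 11.69, 5.56 and 5.23, against 10.86, 12.61 and 11.05.

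**Figure D3:**
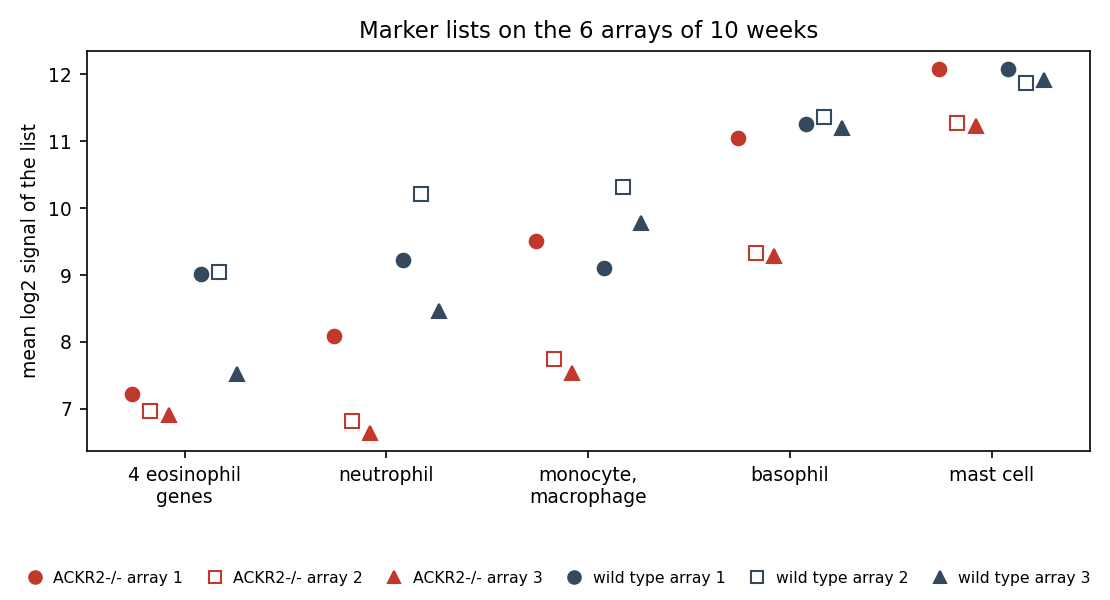
Mean log2 signal (vertical axis) of the 4 eosinophil genes and of 4 marker lists on each of the 6 arrays of 10 weeks; points are arrays, and levels are to be compared within a list only. The eosinophil genes are high on wild type arrays 1 and 2 alone, while the macrophage markers are also high on ACKR2-/- array 1 (9.51) and wild type array 3 (9.78). The neutrophil markers put the 6 arrays in the same order as the eosinophil genes.

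At 2 weeks the wild type arrays numbered 1 and 2 again had the high values, and the ACKR2-/- mean was lower for all 4 genes, as for 54.6% of all genes. Prg2 read 7.07, 6.89 and 7.24 on the ACKR2-/- arrays, against 9.26, 9.53 and 6.75 on the wild type arrays. Epx read 6.36, 6.08 and 6.35 on the ACKR2-/- arrays, against 8.42, 8.01 and 6.18 on the wild type arrays. For both genes wild type array 3, one of the 4 arrays without mast cell signal, lay among or below the ACKR2-/- arrays. Prg3 read 7.10, 7.03 and 6.99, against 7.73, 7.90 and 7.21, and Siglecf 8.20, 8.28 and 8.02, against 8.46, 8.73 and 8.33, so that for 2 of the 4 genes every ACKR2-/- array was below every wild type array, as for 8.60% of all genes.

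The differences at 2 weeks were -1.45 ± 0.72 for Prg2, -1.28 ± 0.62 for Epx, -0.57 ± 0.41 for Prg3 and -0.34 ± 0.18 for Siglecf. Their limma adjusted p values lay between 0.314 and 0.519, and 0 of 19938 genes were called (0% in either direction), with 3480 at an unadjusted p under 0.05. Without wild type array 3, Prg2 (-2.33, adjusted p = 0.00902) and Epx (-1.96, adjusted p = 0.0190) passed, among 4738 genes. That fit sets 2 arrays with mast cell signal against 3 without it, so genotype and this distinction cannot be told apart there. The fit with all arrays has the same limit, since no ACKR2-/- array of 2 weeks had mast cell signal and 2 of the 3 wild type arrays did. Without wild type array 2 the Prg2 difference was -0.94 and that of Siglecf -0.23, and without wild type array 1 that of Epx was -0.83.

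Between 2 and 10 weeks in wild type, Prg2, Epx and Siglecf read higher on each array than on the 2-week array of the same number. For Prg2 and Epx this was by less than the spread between array numbers. Only arrays 1 and 2 had mast cell signal at both times. Fcer1a read 4.83 on 2-week array 3, against 13.93 on 10-week array 3. Time and mast cell signal therefore cannot be told apart for array 3. The limma differences with all arrays have the same limit, since they include 2-week array 3. Array 1 of Prg2 read 9.85 at 10 weeks against 9.26 at 2 weeks, array 2 10.08 against 9.53 and array 3 7.81 against 6.75. Epx read 9.17 against 8.42, 8.25 against 8.01 and 6.78 against 6.18. Prg3 read higher on arrays 1 and 2 and lower on array 3, at 6.86 against 7.21. Limma gave Prg2 a difference of 0.73 ± 0.72, Epx 0.53 ± 0.62, Prg3 0.44 ± 0.41 and Siglecf 0.24 ± 0.18, with adjusted p values from 0.788 to 0.843 and 0 genes called (0% in either direction; 1326 at an unadjusted p under 0.05). Without wild type 2-week array 3 the differences were -0.15 for Prg2 and -0.15 for Epx. That fit keeps the low 10-week array 3 without a 2-week array of the same number. Prg3 ranged from 0.06 without 10-week array 2 to 1.04 without 10-week array 3, and Siglecf was 0.10 without 10-week array 2. The change of the genotype difference from 2 to 10 weeks was -1.25 ± 1.02 for Prg2, -0.78 ± 0.58 for Prg3, -0.20 ± 0.87 for Epx and -0.13 ± 0.26 for Siglecf, with adjusted p values from 0.656 to 0.967 and 0 genes called (0% in either direction; 2271 at an unadjusted p under 0.05). Leaving out single arrays moved that of Prg2 between -0.36, without wild type 2-week array 3, and -1.96, without wild type 10-week array 3, where that of Prg3 was -1.38. These changes rest on the 2-week differences, in which genotype and mast cell signal cannot be told apart.

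Which of the genes mast cells share was examined on the ACKR2-/- arrays, where the 10-week arrays had mast cell signal and the 2-week arrays did not. Prg2 differed by -0.51 ± 0.72, Prg3 by -0.34 ± 0.41, Epx by 0.33 ± 0.62 and Siglecf by 0.11 ± 0.18 (10 minus 2 weeks), with limma adjusted p values from 0.645 to 0.784. None of the 4 passed in the fit of all 12 arrays, while 10.5% of all genes were called higher and 6.33% lower. Fcer1a read 14.02 to 14.14 on the ACKR2-/- arrays of 10 weeks, against 5.21 to 5.47 on those of 2 weeks. On the same arrays Prg2 read 6.42 to 6.77, against 6.89 to 7.24, and Prg3 6.53 to 6.89, against 6.99 to 7.10. Epx read 6.49 to 6.77, against 6.08 to 6.36, and Siglecf 8.08 to 8.64, against 8.02 to 8.28. Prg2 and Prg3 (2 of the 4 genes) were thus lower without overlap, as were 17.7% of all genes, and Epx (1 of the 4) was higher without overlap, as were 26.7%. With only these 2 groups in the fit, limma gave Prg2 an adjusted p of 0.0386, with Prg3 at 0.0699 and Epx at 0.105. The 95% intervals of the 12-array fit include changes in either direction, from -2.11 to 1.08 for Prg2 and from -0.29 to 0.52 for Siglecf. The error of that fit also draws on the wild type arrays. There the SD of Prg2 was 1.53 at 2 weeks and 1.25 at 10 weeks, against 0.18 and 0.19 on the ACKR2-/- arrays. With only the ACKR2-/- groups in the fit, the Prg2 difference was -0.51 ± 0.14. Within wild type at 2 weeks the arrays with mast cell signal read higher, Prg2 at 9.26 and 9.53 against 6.75 on array 3 without it. Epx read 8.42 and 8.01 against 6.18 there, Prg3 7.73 and 7.90 against 7.21, and Siglecf 8.46 and 8.73 against 8.33. Mast cell signal, Xist and everything else that separates the arrays cannot be told apart in either set, nor can time on the ACKR2-/- arrays.

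Some regulators and receptors that eosinophils also use differed between the ACKR2-/- arrays of 10 and of 2 weeks, in both directions. Gata1 read 11.13, 11.52 and 11.42 on the ACKR2-/- arrays of 10 weeks, against 7.97, 7.90 and 7.13 on those of 2 weeks, a rise of 3.69 ± 0.71 with a limma adjusted p of 0.0137. Gata2 rose by 5.98 ± 1.30 and Csf2rb, the shared receptor chain for interleukin 3, interleukin 5 and GM-CSF, by 3.78 ± 0.79. Of 14 measured eosinophil surface and cytokine receptors 7 were called higher and 2 lower (adjusted p under 0.05), against 10.5% and 6.33% of all genes. By mean alone 9 were higher and 5 lower. Among those called, Hrh4, a histamine receptor, rose by 5.85 ± 1.04, and Ccr3, the eotaxin receptor, fell by 2.21. Of 6 lipid mediator enzymes 5 had higher means and 4 were called higher. Hpgds, the prostaglandin D2 synthase, rose by 2.63 ± 0.51 and Ltc4s, the leukotriene C4 synthase, by 2.08 ± 0.47. Of 13 lineage transcription factors 3 were called higher and 3 lower, while by mean 7 were higher and 6 lower. Beside them, 8 of 12 mast cell markers were called higher, and all 8 B cell and 5 of 7 dendritic cell markers lower. Of 13 macrophage markers 1 was called higher and 6 lower. By mean, 12 of 12 mast cell markers were higher, and 7 of 7 dendritic cell and 12 of 13 macrophage markers lower. The part of these cells in the result was not tested. All these calls rest on 3358 genes called with every array in the fit; without ACKR2-/- 10-week array 2 or array 3 limma called 0, with 4783 and 4829 genes at an unadjusted p under 0.05.

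At 10 weeks Gata1 and Gata2 overlapped between genotypes, while Csf2rb read 13.91, 13.91 and 13.97 on the ACKR2-/- arrays, against 13.82, 13.80 and 13.82 on the wild type arrays, slightly higher without overlap. Gata1 differed by 0.06 ± 0.14, Gata2 by -0.03 ± 0.11 and Csf2rb by 0.11 ± 0.11, with limma adjusted p values from 0.804 to 0.969. Il5ra, the specific chain of the interleukin 5 receptor, read 6.72, 6.87 and 6.56 on the ACKR2-/- arrays, against 6.74, 6.45 and 6.69 on the wild type arrays, which overlap. Ccr3 read 9.60, 7.08 and 8.65, against 8.99, 8.59 and 9.21, also overlapping. Cebpe, a C/EBP factor of granulocyte maturation, read 7.17, 7.04 and 6.93 on the ACKR2-/- arrays, against 7.79, 7.70 and 7.51 on the wild type arrays. Cebpe therefore differed by -0.62 ± 0.13 without overlap, with an adjusted p of 0.380.

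**Figure D4:**
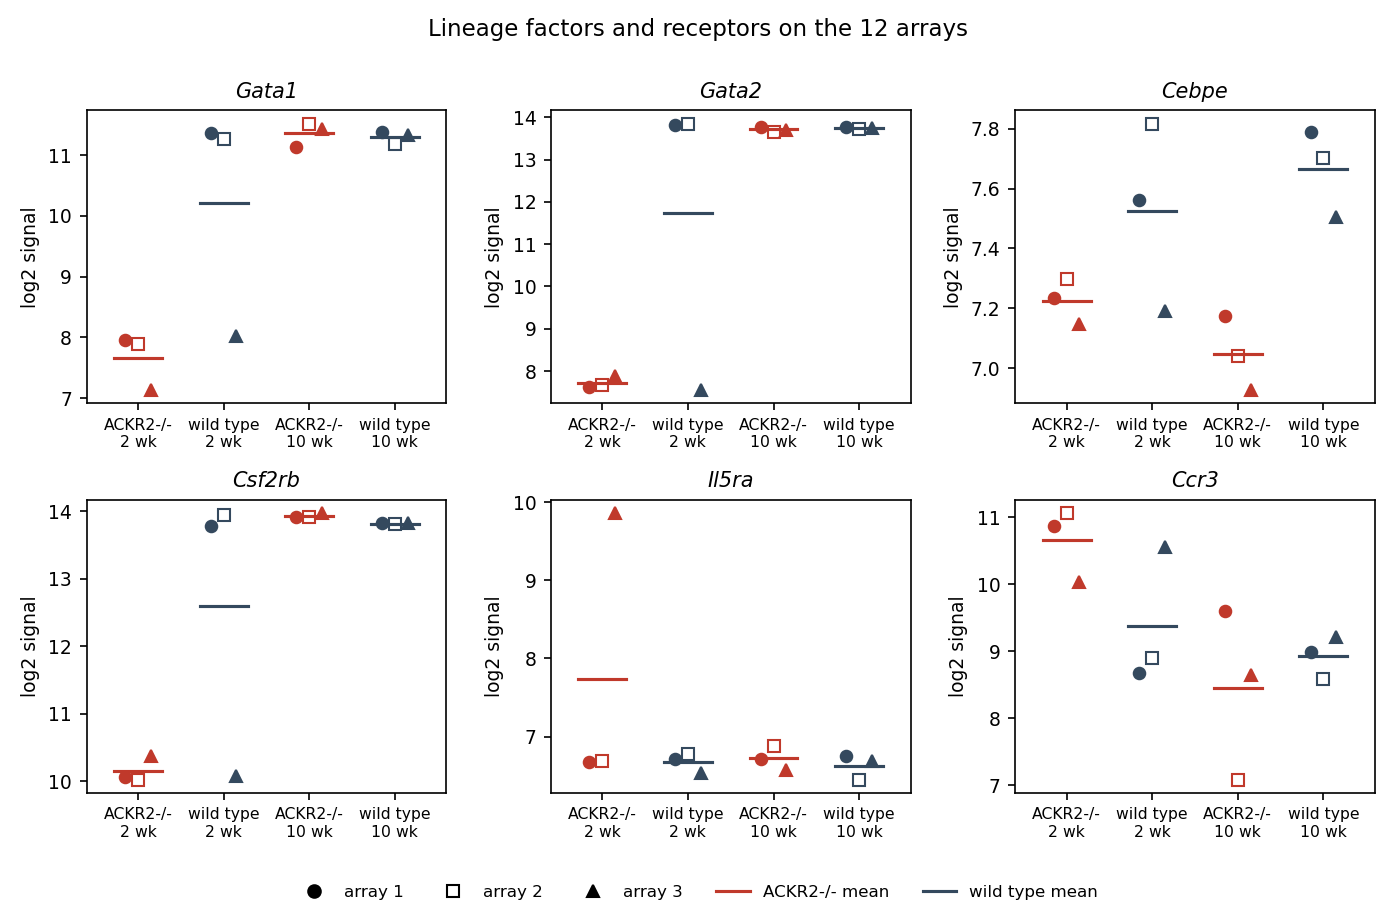
Log2 signal (vertical axes, each with its own range) of 3 lineage transcription factors, the shared receptor chain Csf2rb and the receptors Il5ra and Ccr3 on the 12 arrays; points are arrays, lines group means. Gata1, Gata2 and Csf2rb are high on all 6 arrays of 10 weeks, Cebpe is lower on the 3 ACKR2-/- arrays of 10 weeks than on the wild type ones, and Il5ra is high (9.86) on 1 array alone.

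Of the 13 lineage transcription factors measured, 9 had lower means on the ACKR2-/- arrays at 10 weeks and 5 of them did not overlap, with 0 past the threshold and a median difference of -0.21. Over all genes 48.4% had lower means and 5.98% were lower without overlap. Besides Cebpe, the lowest p values belonged to Trib1, a pseudokinase that regulates C/EBP levels (-0.74 ± 0.19), Id1, an inhibitor of helix-loop-helix factors (-1.11 ± 0.29), and Irf8, a myeloid transcription factor (-1.11 ± 0.30). Among the 14 receptors 7 had lower and 7 higher means (median 0.03). Hrh4 differed by 0.59 ± 0.15, Adgre1, a surface antigen also carried by macrophages, by -2.40 ± 0.86, Itgam, an integrin chain of myeloid cells, by -2.49 ± 0.95, and Pirb, an inhibitory receptor, by 0.32 ± 0.14, none past the threshold.

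The related granule genes did not all order the arrays as Prg2 did. Of 5 measured ribonuclease genes of the wider family, Rnase6 among them, 4 had lower means on the ACKR2-/- arrays (median -0.52) and 0 passed. Ear6 read 6.25, 6.31 and 5.90 on the ACKR2-/- arrays, against 7.58, 6.86 and 6.31 on the wild type arrays, a difference of -0.77 ± 0.30. It was highest on wild type arrays 1 and 2, like the 3 granule genes, and nearly equal on ACKR2-/- array 2 and wild type array 3. Rnase2a read 11.96, 5.68 and 5.42, against 11.85, 11.85 and 11.71, so that ACKR2-/- array 1 stood with the wild type arrays. Its difference was -4.11 ± 1.57, with an adjusted p of 0.433. Apart from Rnase6, these genes are close copies of each other, so a probe set may read more than 1 of them.

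Mpo, the neutrophil counterpart of Epx, read 9.44, 6.89 and 6.99 on the ACKR2-/- arrays, against 10.67, 11.39 and 9.07 on the wild type arrays. It differed by -2.60 ± 0.80, with an adjusted p of 0.399. ACKR2-/- array 1 lay above wild type array 3, the reverse of their order for Prg2. Lpo, lactoperoxidase, differed by -0.01 ± 0.16. Alox15, a lipoxygenase of eosinophils and macrophages, read 9.60, 7.22 and 7.03, against 9.51, 10.09 and 10.01, and like Rnase2a it separated ACKR2-/- array 1 from arrays 2 and 3.

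**Figure D5:**
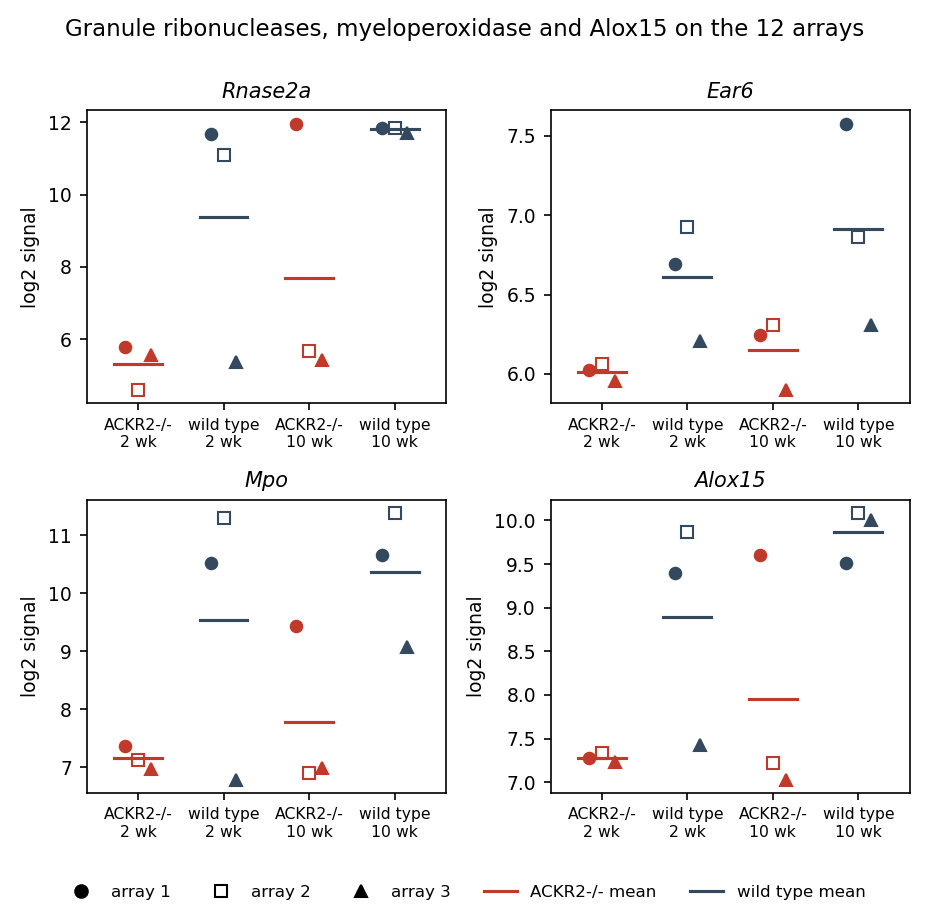
Log2 signal (vertical axes, each with its own range) of the ribonuclease genes Rnase2a and Ear6, of Mpo and of Alox15 on the 12 arrays; points are arrays, lines group means. ACKR2-/- 10-week array 1 lies with the wild type 10-week arrays for Rnase2a (11.96) and Alox15 (9.60), and with the other ACKR2-/- arrays for Ear6 (6.25).

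Of the signals that act on eosinophils, Il5 read 5.84, 5.95 and 5.66 on the ACKR2-/- arrays at 10 weeks, against 5.96, 6.17 and 5.93 on the wild type arrays, and Ccl11, the gene of eotaxin, differed by 0.10 ± 0.16. Ccl24, the gene of a second eotaxin, read 8.19, 7.37 and 7.28, against 11.17, 9.84 and 9.92. Its difference of -2.69 ± 0.39 had an adjusted p of 0.380. All 3 wild type arrays were above the ACKR2-/- arrays, including wild type array 3, where Prg3 and Epx were low. Of the 10 genes of this list 7 had lower means (median -0.21), against 48.4% of all genes, 3 were lower without overlap, against 5.98%, and 0 passed. Ccl5, a chemokine of T cells and myeloid cells, differed by -1.13 ± 0.30 and Il13, a type 2 cytokine, by -0.96 ± 0.29. Of 8 other Siglec genes measured, 6 had lower means, with a median of -0.22 and 0 past the threshold.

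Prg2 and Prg3 are next to each other among the protein-coding genes of chromosome 2 in the RefSeq table of GRCm38.p6. Slc43a3, a nucleobase transporter gene on the Prg2 side, read 10.26, 9.03 and 9.65 on the ACKR2-/- arrays at 10 weeks, against 11.24, 10.43 and 9.92 on the wild type arrays, which overlap. P2rx3, an ATP-gated channel gene on the Prg3 side, differed by 0.0046. After centring each gene on its mean, Prg2 and Prg3 differed by a root mean square of 0.76 over the 12 arrays and 0.70 over the 6 arrays of 10 weeks. Prg2 and Epx differed by 0.56 over the 12 arrays and 0.70 over the 6, and Prg3 and Epx by 0.55 and 0.39. Siglecf differed from Prg3 by 0.55 and 0.75, from Epx by 0.85 and 0.89 and from Prg2 by 1.16 and 1.31. This measure also depends on how much each gene varies. Over the 12 arrays the spread was 0.70 for Prg3, 1.00 for Epx and 1.35 for Prg2. A gene that did not vary at all would differ from each by that spread. Epx is on chromosome 11, where Lpo and Mpo lie within 3 protein-coding genes of it.

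The genes most like each member were sought by the same measure among all named genes, as a description. Over 12 arrays Prg2, with a spread of 1.35, was nearest to Clec5a, a myeloid lectin receptor (0.41), Csrnp1 (0.51) and Cxcl2, a neutrophil-attracting chemokine (0.54). Prg3, with a spread of 0.70, was nearest to Ltf, the lactoferrin of neutrophil granules (0.32), Gpr84 (0.34) and Il1f9, an interleukin 1 family cytokine (0.34). Epx, with a spread of 1.00, was nearest to H2bc4, a histone gene (0.33), Pcbd1 (0.33) and Tnip3 (0.34). Over the 6 arrays of 10 weeks the nearest were Ms4a4c (0.37), Clec5a (0.42) and Cxcl2 (0.47) for Prg2, Ltf (0.15), Csrnp1 (0.25) and Clec4b2 (0.26) for Prg3, and Gapt (0.18), Clec4b2 (0.21) and Ccl22 (0.23) for Epx. No member was among the 3 genes nearest to another member, and Siglecf varied too little to be compared.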

How the data were processed

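Single-colour oligonucleotide arrays were hybridised with target made from 250 ng of total RNA of each of 12 samples, per the labels' protocols. The table deposited by the authors holds log2 values of 35399 probe sets. Per the submitters' processing notes, Partek 6.5 and its RMA method were used, which subtracts background, gives all arrays 1 distribution and summarises probes. The values ran from 2.7 to 14.9 with array medians from 7.76 to 7.90, so they were read as log2 and not centred. They carry no detection call, and scanner files, slides and scan batches were not examined here. The number of arrays limits the precision. The genome build was not given in the sources used here.

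The annotation of the platform gave 1 symbol to 21789 probe sets, several to 1621 and none to 11989. The probe set with the highest mean was kept for each of 19938 genes. Groups follow the sample titles. Differences were tested with limma 3.58.1 in R 4.3.3 (lmFit and eBayes, Benjamini-Hochberg over all genes, threshold 0.05). The 10-week comparison used the 6 arrays of 10 weeks, since the wild type 2-week group mixes 2 kinds of arrays. The other comparisons used all 12 arrays with 1 mean per group. Errors are limma's standard errors. The code of the fit was run on simulated data with independent noise for each gene and array. Those data held no mixed kinds of arrays within a group, so they do not show how the fit behaves here.

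Genes named are mainly the 4 measured members, fixed regulators and ligands, and up to 4 genes per list with the lowest p at 10 weeks. Likeness used the 3 nearest genes for members spanning at least 2 over 12 arrays or 1 over 6. Members and the 14 lists were chosen with earlier results of these data known. Slc43a3, P2rx3 and the other neighbours, and Ngp, Chil3 and Rnase6, were added after the data were seen.

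Same-numbered arrays deviated together only between wild type at 10 and 2 weeks (r across genes from 0.166 to 0.359, against at most 0.023 for unlike numbers), and at 10 weeks between genotypes r was -0.308 to -0.180. Alternatives were all 12 or only the compared arrays, a replicate block, the mean of probe sets, median centring, renewed quantile normalization, a filter on dim genes, an intensity trend, array weights and leaving out each array.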

Additional observations from a re-analysis of the deposited data

How the results depend on the processing

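No gene was called at 10 weeks with all 12 arrays in the fit, a replicate block, another summary of probe sets, median centring, renewed quantile normalization, a dim-gene filter or an intensity trend. With the replicate block the Prg2 difference at 10 weeks was -2.69 ± 0.44 (adjusted p = 0.451), and the block changed no call of a member in any comparison. All 4 genes kept a negative difference under all 14 alternatives at 10 and at 2 weeks. With array weights limma called 9498 genes and 4 members at 10 weeks, 9197 and 4 at 2 weeks, 9550 genes between weeks in ACKR2-/- and 4136 for the change of the genotype difference. The estimation of the weights stopped before convergence each time, and they ran from 0.131 to 36.7 at 10 weeks. With only its 2 groups in the fit, 1 member, Prg2 (-0.51, adjusted p = 0.0386), passed between weeks in ACKR2-/-. Leaving out single arrays gave 0 to 506 genes and 0 to 2 members at 10 weeks, 0 to 4738 and 0 to 2 at 2 weeks, 0 to 2655 genes between weeks in ACKR2-/- and 0 to 3138 for the change of the genotype difference, against 3358 genes in the third of these and 0 in the others with all arrays. The 506 genes were called without ACKR2-/- 10-week array 1, with no member among them. Signs turned only for differences that had not passed the threshold. Between weeks in wild type, array weights gave -0.92 for Prg2, -0.47 for Prg3 and -0.59 for Epx, leaving out 2-week array 3 gave -0.15 for Prg2 and -0.15 for Epx, and leaving out 10-week array 1 gave -0.02 for Epx, while leaving out single arrays reached 1.45 for Prg2 and 1.17 for Epx. Between weeks in ACKR2-/-, Siglecf was -0.068 with array weights and -0.067 to 0.212 when single arrays were left out, turning without 10-week array 1. For the change of the genotype difference, array weights gave 0.43 for Prg2, 0.12 for Prg3 and 0.93 for Epx, Epx was 0.48 without wild type 2-week array 3 and 0.35 without wild type 10-week array 1, with -0.84 as the lowest value when single arrays were left out, and Siglecf was 0.013 without wild type 10-week array 2, with -0.31 as the lowest. The cause of these changes was not tested. With no detection call, how far the low values of Prg2, Prg3 and Epx exceed background is unknown.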

Other observations

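Il5ra, the chain that makes the interleukin 5 receptor specific, read 9.86 on ACKR2-/- 2-week array 3 and between 6.45 and 6.87 on the other 11 arrays. That array also had the highest average of B cell markers, 12.59, against 9.94 and 9.93 on the other ACKR2-/- arrays of 2 weeks, and the highest Siglecg, a Siglec of B cells, at 12.24, against 9.86 and 9.83. Prg2, Prg3, Epx and Siglecf read 7.24, 6.99, 6.35 and 8.02 on it, against 7.07, 7.10, 6.36 and 8.20 on array 1 of its group. Rnase6, a ribonuclease gene of the same superfamily as the Ear genes, was highest on ACKR2-/- 10-week arrays 2 and 3, at 13.41 and 13.60, where Rnase2a was low.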
